A study of Mus musculus with 6 samples.

Results

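The D cyclins and the CDK inhibitors set the pace of the G1 phase, and their RNA was followed in neurospheres, floating colonies that neural stem and progenitor cells form in culture. The members are Ccnd1, Ccnd2 and Ccnd3, the Cip/Kip inhibitor genes Cdkn1a, Cdkn1b and Cdkn1c, and the INK4 inhibitor genes Cdkn2a, Cdkn2b, Cdkn2c and Cdkn2d, 10 genes of the 22180 tested. They were chosen by name. Each was read by 1 probe set, the only one paired with that gene alone.

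The MG cultures came from 3 adult CD1 mice whose mothers were injected with MG, and the PBS cultures from 3 adult CD1 mice whose mothers were injected with PBS. MG stands, going by the study's title, for methylglyoxal, a reactive by-product of glycolysis. Per the labels, the mothers received 0.5 mg/kg MG, or PBS, intraperitoneally 2 times a day from gestational day 12 until the litter was born. The subependymal region of the offspring was dissected at 2 months of age, and the cells of both groups grew for 7 days with EGF (20 ng/ml), FGF2 (10 ng/ml), B27 and heparin before their RNA was put on Affymetrix Mouse Gene 2.0 ST arrays. The stock is outbred, and the labels do not give the sex of the animals or whether those of a group shared a mother, so a difference between litters and an effect of the injections cannot be told apart. Titles call the cultures primary neurospheres and descriptions call them secondary. In bulk RNA, a larger share of cells with a transcript and more of it per cell cannot be told apart.

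D cyclins bind and activate the kinases CDK4 and CDK6, which phosphorylate the retinoblastoma proteins and so release E2F factors that drive the genes of DNA replication. Growth factors such as EGF and FGF2 induce D cyclins. INK4 proteins bind CDK4 and CDK6 and keep cyclin D away, while Cip/Kip proteins bind cyclin-CDK complexes, chiefly those of CDK2. In the subventricular zone, Cdkn2a is known to limit neural stem cell self-renewal with age and is silenced there by the Polycomb protein BMI1, and Cdkn1a and Cdkn1b restrain stem cell and transit amplifying cell divisions.

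Cdkn2a and Cdkn2b are neighbours on mouse chromosome 4, and their values had the widest ranges of the 10 members over the arrays. Cdkn1c, on chromosome 7, had nearly as wide a range, 1.01 in log2 against 1.02 for Cdkn2a, but no window was found for it. Windows of 300 bases around the gene starts of Cdkn2a and Cdkn2b are shown, from RefSeq on GRCm38.p6. Each reaches from 250 bases before a start to 50 after it. Cdkn2a has 2 starts, which are known to give different proteins. The upstream one makes ARF, which stabilises p53, and the downstream one makes the INK4A inhibitor. The starts lie 16413 and 28840 bases from that of Cdkn2b. All 3 windows are on the minus strand and are written 5′ to 3′ along it. Capitals mark 2 kinds of match, searched on both strands, that do not overlap each other in these windows: GGGCGG, a GC box, and the E2F letters TTTCCCGC, TTTCGCGC, TTTGCCGC or TTTGGCGC.
Cdkn2a, upstream start, chr4:89294570-89294869: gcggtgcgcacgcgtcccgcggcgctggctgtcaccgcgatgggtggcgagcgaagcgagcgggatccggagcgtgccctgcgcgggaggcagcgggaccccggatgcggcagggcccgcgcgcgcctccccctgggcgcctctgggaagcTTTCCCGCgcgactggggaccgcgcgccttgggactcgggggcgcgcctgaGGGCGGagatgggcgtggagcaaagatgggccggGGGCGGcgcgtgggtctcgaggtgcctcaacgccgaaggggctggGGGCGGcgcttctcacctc
Cdkn2a, downstream start, chr4:89282143-89282442: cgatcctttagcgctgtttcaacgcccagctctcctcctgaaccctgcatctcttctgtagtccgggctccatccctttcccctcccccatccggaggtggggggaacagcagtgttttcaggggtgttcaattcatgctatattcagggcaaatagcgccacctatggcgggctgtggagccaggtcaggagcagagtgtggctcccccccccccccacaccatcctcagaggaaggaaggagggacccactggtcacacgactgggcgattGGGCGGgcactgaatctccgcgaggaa
Cdkn2b, chr4:89310983-89311282: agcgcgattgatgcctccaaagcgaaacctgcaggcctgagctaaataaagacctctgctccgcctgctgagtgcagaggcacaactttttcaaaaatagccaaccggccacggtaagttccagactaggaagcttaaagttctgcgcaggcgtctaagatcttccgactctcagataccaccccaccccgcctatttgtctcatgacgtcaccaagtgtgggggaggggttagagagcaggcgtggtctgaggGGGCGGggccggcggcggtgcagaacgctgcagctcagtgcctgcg

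Only the upstream Cdkn2a window held an E2F match, TTTCCCGC beginning 99 bases before the start, among the 11 windows found for 7 members (Ccnd3, Cdkn1a, Cdkn1b, Cdkn2a, Cdkn2b, Cdkn2c and Cdkn2d). Such a match occurs in 2.26% of the 32851 windows of all genes. A GC box, a match for SP1-type factors, occurs in 35.7% of those windows and was present in 9 of the 11. The upstream Cdkn2a window had 45 CpG dinucleotides, more than 98.1% of all windows, against 12 in the downstream window and 18 in that of Cdkn2b. A match is a description of letters and not a site. The tables used here do not say which exons of Cdkn2a its probe set reads, so its value may belong to ARF, to INK4A or to both.

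The deposited log2 values ran from 0.73 to 13.81, and the median over all probe sets was 5.25 to 5.42 on the 6 arrays. A reference level of 5.03 marked what low probe sets read. It was the 95th percentile over 1390 genes of olfactory and vomeronasal receptors, each taken at its 6-array mean, and 13704 genes exceeded it in MG and in PBS. Of the neural stem and progenitor markers, 10 of 10 measured were above this level, among them Sox2, Nes and Vim. So were 6 of 6 astrocyte, 6 of 6 oligodendrocyte lineage and 6 of 6 neuroblast and neuron markers. Above it were also 3 of 7 microglial, 3 of 6 endothelial, 3 of 6 mural or fibroblast, 3 of 5 ependymal and 1 of 4 choroid plexus markers. Of all 22180 genes, 13704 were. The arrays numbered 3 of both groups stood apart from the other 4. On the first principal component, 44.1% of the variance, MG replicates 1, 2 and 3 scored -21.3, -9.87 and 37.6, and PBS replicates 1, 2 and 3 scored -14.5, -13.0 and 21.1. Values are therefore given with and without those 2 arrays.

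All 10 members were above the reference level on every array, and none of them passed the test between MG and PBS. Over all genes, 0% passed limma's moderated test at a Benjamini-Hochberg adjusted p under 0.05, and the smallest adjusted p was 0.241. At an unadjusted p under 0.05 in that moderated test the share was 3.21% of all genes and 0 of the 10 members. Means were higher after MG in 6 members and lower in 4, where 53.8% of all genes had a higher mean. The median log2 difference of the members was 0.09, against 0.01 over all genes. Without regard to sign it was 0.13 for the members and 0.09 for all genes. The 95% confidence interval of a member reached a median of 0.38 to either side on the log2 scale, with 3 arrays a group. These intervals are not adjusted for the number of genes. A difference called at the adjusted threshold would have had to be larger than the reach of its interval.

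**Figure D1:**
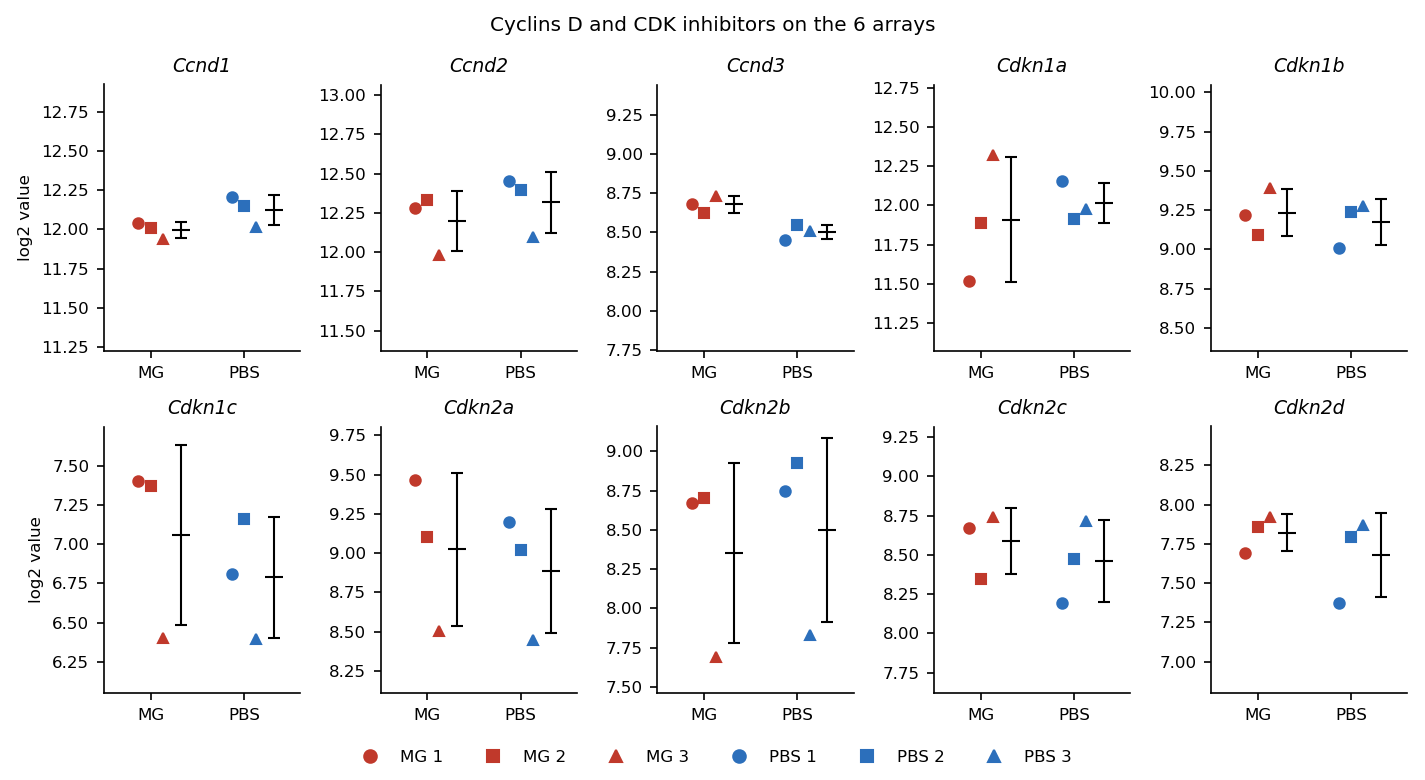
Log2 value of each member on the 6 arrays, with MG (red) left of PBS (blue), the marker showing the replicate number and the black bar the mean with its SD (n = 3 each). Every panel spans the same height on its log2 axis. Ccnd3 is the member whose groups do not overlap, and the triangles, which are the arrays numbered 3, are lowest for Ccnd2, Cdkn1c, Cdkn2a and Cdkn2b.

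Ccnd3 was the member whose MG and PBS values did not overlap. This cyclin is widely expressed and best known for its role in lymphocyte expansion. Its log2 values were 8.68, 8.62 and 8.73 in MG replicates 1, 2 and 3, and 8.45, 8.54 and 8.51 in PBS replicates 1, 2 and 3. Each MG value was above each PBS value, narrowly so for MG replicate 2 against PBS replicate 2. The means were 8.68 ± 0.05 in MG and 8.50 ± 0.05 in PBS (SD, n = 3 each). Log2 values thus differed by 0.18 (standard error 0.11, 95% confidence interval -0.07 to 0.43). The standard error and interval are limma's, moderated toward the spread over all genes, and this standard error exceeds both SDs. In limma the adjusted p was 0.9998. A two-sided exact permutation test returned 0.1, which is the lowest p that 2 groups of 3 can reach. Among all genes, 7.34% had groups that did not overlap, and 1 of 10 members is close to that share. Without both arrays numbered 3 the log2 difference was 0.15.

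Ccnd1 and Ccnd2 had lower means after MG, but their groups overlapped. Ccnd1 is the main D cyclin that growth factors induce in many cells. It read 12.04, 12.01 and 11.94 in MG replicates 1, 2 and 3, and 12.21, 12.15 and 12.02 in PBS replicates 1, 2 and 3. Only MG replicate 1 reached into the PBS range, past PBS replicate 3. The log2 difference was -0.13 (95% confidence interval -0.39 to 0.14), with an adjusted p of 0.9998 in limma, and -0.15 with both arrays numbered 3 left out.

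Ccnd2, which is needed in mice for adult neurogenesis, had its lowest value in both groups on the array numbered 3. It read 12.28, 12.33 and 11.98 in MG replicates 1, 2 and 3, and 12.45, 12.40 and 12.10 in PBS replicates 1, 2 and 3. MG replicates 1 and 2 lay within the PBS range and MG replicate 3 just below it. The log2 difference was -0.12 (95% confidence interval -0.47 to 0.23). It shrank to -0.01 with MG replicate 3 left out and reached -0.23 with PBS replicate 3 left out, and was -0.12 with neither of them.

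The Cip/Kip gene Cdkn1a was more spread in MG than in PBS, with overlapping groups. Its product p21 is induced by p53 and by other stress and differentiation signals. Its values were 11.52, 11.89 and 12.32 in MG replicates 1, 2 and 3, and 12.16, 11.91 and 11.98 in PBS replicates 1, 2 and 3. MG replicates 1 and 2 were below all PBS values, narrowly so for MG replicate 2, and MG replicate 3 was above them all. The SD was 0.40 in MG and 0.13 in PBS (n = 3 each). The log2 difference was -0.11 (95% confidence interval -0.57 to 0.36). Leaving out MG replicate 1 gave 0.09, leaving out MG replicate 3 gave -0.31, and leaving out both arrays numbered 3 gave -0.33.

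Other p53 targets had the same order as Cdkn1a on the arrays numbered 1 and 2, but not once those numbered 3 were included. The mean of 19 measured genes of that list, relative to their 6-array mean, was -0.05, 0.08 and -0.06 in MG replicates 1, 2 and 3, and 0.20, 0.12 and -0.29 in PBS replicates 1, 2 and 3. PBS replicate 3 was the lowest for these genes, whereas MG replicate 1 was the lowest for Cdkn1a. Of the 19 genes, 8 had higher and 11 lower means after MG, with a median log2 difference of -0.02, and 0 had an unadjusted p under 0.05. Their mean log2 difference was -0.02, and -0.14 with both arrays numbered 3 left out. The relation of these genes to Cdkn1a was not tested.

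Cdkn1b encodes p27, an inhibitor that accumulates in cells leaving the cycle and is controlled largely at the level of protein breakdown by SKP2. Its values were 9.22, 9.09 and 9.39 in MG replicates 1, 2 and 3, and 9.01, 9.24 and 9.27 in PBS replicates 1, 2 and 3. The groups overlapped over most of their range, with means of 9.23 ± 0.15 in MG and 9.17 ± 0.14 in PBS (SD, n = 3 each). The log2 difference was 0.06 (95% confidence interval -0.25 to 0.37), and its sign turned without MG replicate 3 (-0.02) or PBS replicate 1 (-0.02). With both arrays numbered 3 left out it was 0.03. Skp2 itself differed by 0.09 (95% confidence interval -0.27 to 0.44) and was highest on the array numbered 3 of each group, at 10.02 in MG and 9.85 in PBS.

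Cdkn1c, an imprinted gene whose product p57 is linked to quiescence of adult neural stem cells, had the largest mean difference of the 10 members and also one of the largest spreads. It read 7.40, 7.37 and 6.40 in MG replicates 1, 2 and 3, and 6.81, 7.16 and 6.39 in PBS replicates 1, 2 and 3. The first 2 MG values were above all PBS values, and the third was next to the lowest PBS value. The means were 7.06 ± 0.57 in MG and 6.79 ± 0.38 in PBS (SD, n = 3 each), a difference of 0.27 in log2 (standard error 0.30). The 95% confidence interval ran from -0.42 to 0.96 and the adjusted p in limma was 0.9998. The log2 difference was 0.60 without MG replicate 3, 0.07 without PBS replicate 3 and 0.40 without both arrays numbered 3, so single arrays moved it by as much as its own size.

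**Figure D2:**
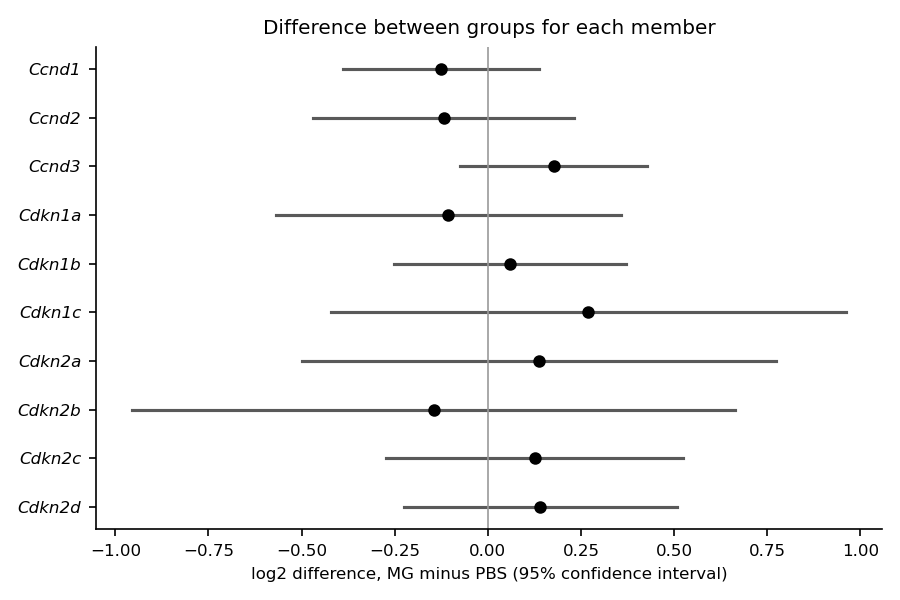
Log2 difference, MG minus PBS, of each member (point) with its 95% confidence interval from limma (line). Every interval includes 0, and the widest belong to Cdkn2b, Cdkn1c and Cdkn2a.

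Cdkn2b, which encodes p15 and is known as a target of TGF-beta, had the widest range of the 10 members, 1.23 on the log2 scale. Its values were 8.67, 8.70 and 7.69 in MG replicates 1, 2 and 3, and 8.75, 8.92 and 7.83 in PBS replicates 1, 2 and 3. In both groups the array numbered 3 was far below the other 2, and those 2 arrays were 0.84 or more below each of the other 4. The log2 difference between groups was -0.15 (95% confidence interval -0.96 to 0.66), which allows a fold from 0.516 to 1.58. Leaving out MG replicate 3 gave 0.19, PBS replicate 3 -0.48, PBS replicate 2 0.07, and both arrays numbered 3 -0.15.

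Cdkn2a showed the same low arrays. It read 9.47, 9.10 and 8.50 in MG replicates 1, 2 and 3, and 9.20, 9.02 and 8.45 in PBS replicates 1, 2 and 3. The arrays numbered 3 were 0.51 or more below each of the other 4, and MG replicate 1 was the highest. The means were 9.02 ± 0.49 in MG and 8.89 ± 0.39 in PBS (SD, n = 3 each), a log2 difference of 0.14 (95% confidence interval -0.50 to 0.77). Its sign turned without MG replicate 1 (-0.08) or PBS replicate 3 (-0.08), it was 0.40 without MG replicate 3, and 0.18 with both arrays numbered 3 left out.

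Cdkn2c and Cdkn2d, which encode p18 and p19 of the INK4 family, did not share the low arrays of Cdkn2a and Cdkn2b. Cdkn2c read 8.67, 8.35 and 8.74 in MG replicates 1, 2 and 3, and 8.20, 8.47 and 8.72 in PBS replicates 1, 2 and 3. Its 2 arrays numbered 3 were the highest, by 0.04 over MG replicate 1. Cdkn2d read 7.69, 7.86 and 7.92 in MG replicates 1, 2 and 3, and 7.38, 7.79 and 7.87 in PBS replicates 1, 2 and 3, with PBS replicate 1 the lowest for both genes. The log2 differences were 0.13 for Cdkn2c (95% confidence interval -0.27 to 0.52) and 0.14 for Cdkn2d (-0.23 to 0.51). Without PBS replicate 1 both were -0.01. With both arrays numbered 3 left out they were 0.18 for Cdkn2c and 0.19 for Cdkn2d.

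Replication genes stood highest on the arrays on which Cdkn2a, Cdkn2b, Cdkn1c and Ccnd2 stood lowest. The mean of 33 measured genes of DNA replication and S phase, relative to their 6-array mean, was -0.12, -0.27 and 0.47 in MG replicates 1, 2 and 3, and -0.41, -0.11 and 0.43 in PBS replicates 1, 2 and 3. The mean of 37 mitosis genes was -0.12, -0.16 and 0.38 in MG, and -0.40, -0.10 and 0.39 in PBS, in the same order. All 33 and all 37 genes had both arrays numbered 3 above the other 4. The lists were chosen with earlier results of these data known, and their genes move together, so these counts are not independent. Mcm2, a subunit of the replicative helicase, read 9.70, 9.48 and 10.18 in MG, and 9.47, 9.73 and 10.13 in PBS. Mki67, the gene of the Ki-67 proliferation antigen, read 10.78, 10.86 and 11.11 in MG, and 10.46, 10.66 and 11.12 in PBS. Pcna, the sliding clamp of DNA polymerase, and Top2a, a topoisomerase of dividing cells, were also highest on the arrays numbered 3.

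The members fell on both sides of this pattern. Both arrays numbered 3 were below the other 4 for 4 members (Ccnd2, Cdkn1c, Cdkn2a and Cdkn2b), above them for 3 (Cdkn1b, Cdkn2c and Cdkn2d) and in neither place for Ccnd1, Ccnd3 and Cdkn1a. Among the 13704 genes that exceeded the reference level in MG and in PBS, 18.8% had both arrays numbered 3 below the other 4 and 22.5% had them above, so that either position was common. Over all 22180 genes each share was 15.7%. The distance to the nearest other array was 0.19 for Ccnd2, 0.41 for Cdkn1c, 0.51 for Cdkn2a and 0.84 for Cdkn2b, whereas it was between 0.02 and 0.04 for the 3 members that were above. Because the 6 arrays form separate clusters of 2 and 4 in these genes, a pooled correlation with proliferation genes would rest on the distance between the clusters. None is given, and the relation was not tested.

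**Figure D3:**
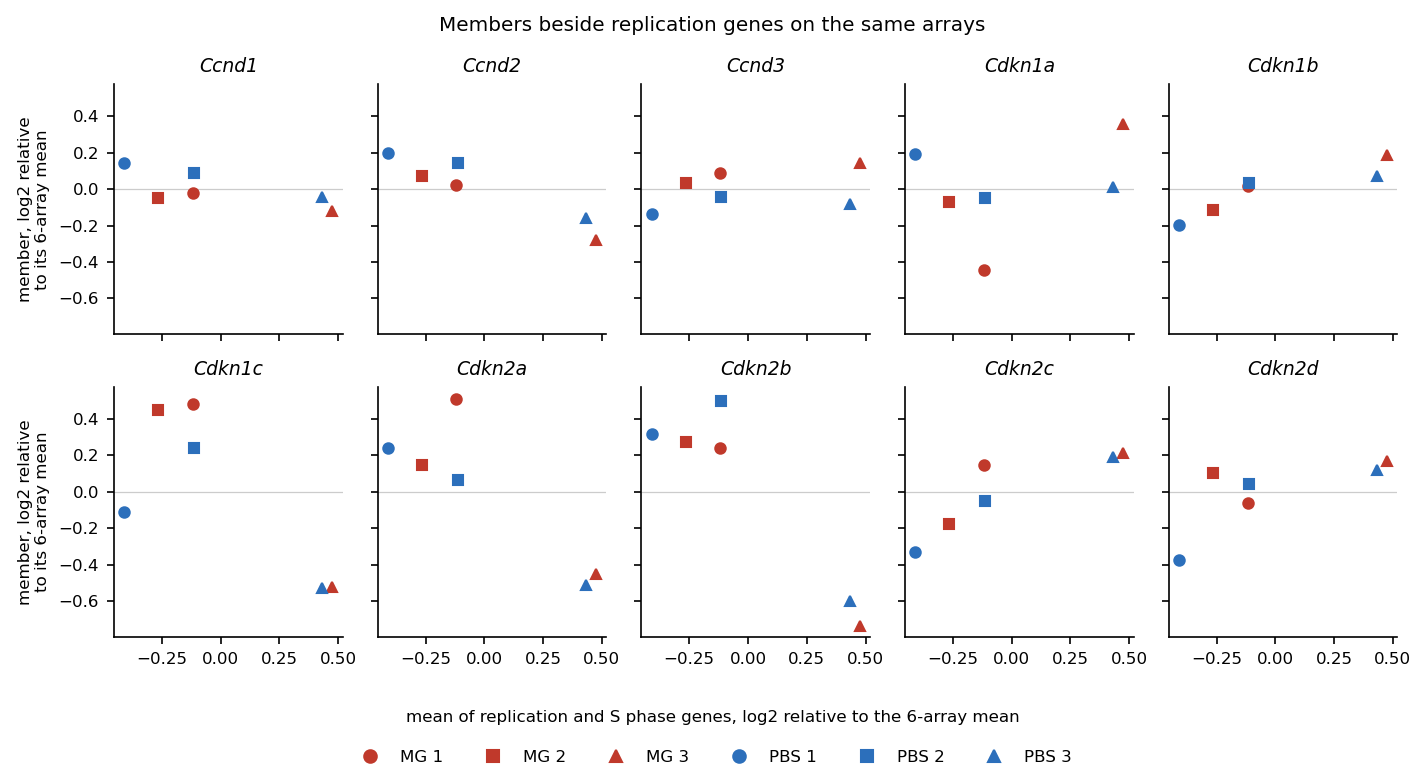
Each member on the 6 arrays (vertical axis, log2 relative to its own 6-array mean) against the mean of 33 replication and S phase genes on the same array (horizontal axis, log2 relative to the 6-array mean), with MG in red, PBS in blue and the marker showing the replicate number. The triangles form a cluster of their own at the right of every panel, low for Cdkn2b, Cdkn1c, Cdkn2a and Ccnd2, so no line is fitted.

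On the other 4 arrays alone, which run from -0.41 to -0.11 in replication genes, the members had no shared order. PBS replicate 1 was the lowest of the 4 for replication genes. On it, Ccnd3, Cdkn1b, Cdkn1c, Cdkn2c and Cdkn2d were at their lowest of the 4, and Ccnd1, Ccnd2 and Cdkn1a at their highest. Cdkn2a and Cdkn2b on PBS replicate 1, at 0.24 and 0.32 relative to their 6-array means, were the second highest of the 4. Cdkn2a and Cdkn2b themselves differed there, with MG replicate 1 the highest for Cdkn2a at 0.51 and PBS replicate 2 the highest for Cdkn2b at 0.50.

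Astrocyte markers were low on the same arrays as Cdkn2a, Cdkn2b and Cdkn1c. All 6 of the 6 listed markers were above the reference level, among them Aqp4, the water channel of astrocyte endfeet. Their mean relative to the 6 arrays was 0.35, 0.32 and -0.42 in MG replicates 1, 2 and 3, and -0.02, 0.22 and -0.45 in PBS replicates 1, 2 and 3. Their mean level ran from 8.01 to 8.78 in MG and from 7.98 to 8.65 in PBS, and none was at 0. Both arrays numbered 3 were below the other 4 for 5 of the 6 markers. All 6 had higher means in MG, as did 53.8% of all genes. Their median log2 difference was 0.19, and 0 had an unadjusted p under 0.05. Most of them shared the low arrays, so their counts are not independent. The mean of the 6 measured oligodendrocyte lineage markers was also lowest on these arrays, narrowly so for PBS replicate 3 against PBS replicate 1. Relative to the 6 arrays it was 0.23, 0.02 and -0.18 in MG replicates 1, 2 and 3. In PBS replicates 1, 2 and 3 it was -0.04, 0.06 and -0.09. The mean level of these markers ran from 8.27 to 8.69 in MG and from 8.36 to 8.52 in PBS. Singly, 2 of the 6 had both arrays numbered 3 below the other 4, and 1 had them above. Of the 13704 genes past the reference level, 18.8% had them below and 22.5% above, so the low position was not shown to be a trait of this list. The part of either marker list in the low values of the 3 inhibitor genes was not tested. The neural stem and progenitor markers had a mean level from 10.20 to 10.28 in MG and from 10.07 to 10.25 in PBS.

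The genes most like Cdkn2b and Cdkn2a across the 6 arrays, by root mean square difference of centred log2 values among 13703 genes, were other genes and not other members. For Cdkn2b they were Skap2 (0.08), which encodes a Src kinase adaptor, and the small nucleolar RNA genes Snord22 (0.10) and Snord89 (0.11). For Cdkn2a they were Hacl1 (0.06), an enzyme of peroxisomal fatty acid oxidation, the cytokine gene Il18 (0.06) and Ptgr2 (0.06), a prostaglandin reductase. Cdkn2a ranked 263 in likeness to Cdkn2b at 0.25, with Cdkn1c next among the members at rank 297 and 0.255. The member most like Cdkn2a was Cdkn1c, at rank 609 and 0.21, with Cdkn2b next among the members at rank 1335 and 0.25. This likeness rests on 6 values and mostly on the 2 low arrays.

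The remaining machinery of the G1 step also showed no member past the test between MG and PBS. Of 29 measured genes, 14 had a higher mean in MG and 15 a lower one. The log2 differences ran from -0.16 to 0.24 around a median of -0.0003, and 0 had an unadjusted p under 0.05. The kinase partners of the D cyclins were close in both groups, with means of 11.98 ± 0.17 in MG and 11.93 ± 0.03 in PBS for Cdk4, and 9.03 ± 0.39 in MG and 9.04 ± 0.23 in PBS for Cdk6 (SD, n = 3 each). Cdk2, the kinase that cyclin E activates, read 8.69, 9.06 and 9.85 in MG replicates 1, 2 and 3, and 9.15, 9.26 and 9.53 in PBS replicates 1, 2 and 3, and so was highest on the arrays numbered 3. The same 2 arrays were above the other 4 for 15 of the 29 genes, among them Ccne1 and E2f1, and below them for 1. Rb1, the retinoblastoma gene itself, differed by 0.01 (95% confidence interval -0.28 to 0.31).

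Genes that act on the inhibitor genes were likewise without a call. Of 17 measured Polycomb genes and partners, 8 had higher and 9 lower means after MG (median log2 difference -0.01), and 0 had an unadjusted p under 0.05. Bmi1, the Polycomb repressor of Cdkn2a, had means of 7.06 ± 0.11 in MG and 7.17 ± 0.13 in PBS (SD, n = 3 each). It read 7.12, 7.14 and 6.93 in MG replicates 1, 2 and 3, and 7.09, 7.31 and 7.10 in PBS replicates 1, 2 and 3, so that MG replicate 3 was its lowest array and PBS replicate 3 was not set apart. Both arrays numbered 3 were above the other 4 for 7 of the 17 genes and below them for 0. Ezh2, the histone methyltransferase of Polycomb complex 2, and Hmga2, known to lower Cdkn2a in young neural stem cells, were among the 7. Hmga2 read 6.50, 6.85 and 7.35 in MG replicates 1, 2 and 3, and 6.84, 6.83 and 7.16 in PBS replicates 1, 2 and 3, and its log2 difference between groups was -0.04. Of 19 FoxO, TGF-beta and Notch regulators, 11 had higher and 8 lower means (median 0.01). Their log2 differences ran from -0.45 for Tgfbr2 to 0.35 for Hes5, and 0 had an unadjusted p under 0.05. Foxo3, a factor that induces Cdkn1b and guards stem cell quiescence, differed by 0.22 (95% confidence interval -0.19 to 0.64).

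The replication and mitosis lists had higher means after MG in 28 of 33 and 30 of 37 genes, with median log2 differences of 0.05 and 0.06 against 0.01 over all genes, and 0 of either list had an unadjusted p under 0.05. These genes move together across arrays, so their counts are not independent. The mean log2 difference of the replication list was 0.06, but leaving out PBS replicate 3 gave 0.29, leaving out MG replicate 3 gave -0.16, and leaving out both gave 0.07.

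**Figure D4:**
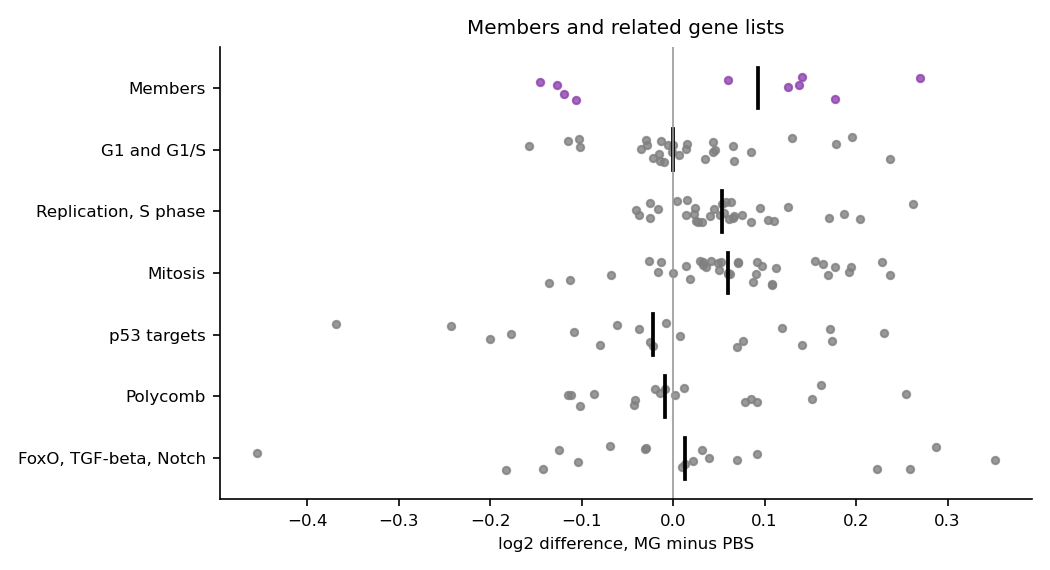
Log2 difference, MG minus PBS, of each member (purple) and of each gene of 6 related lists (grey), with the median of each row as a black line. The medians lie between -0.02 and 0.09.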

How the data were processed

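Expression was measured on 6 Affymetrix Mouse Gene 2.0 ST arrays, 3 of MG and 3 of PBS offspring, from 250 ng of total RNA each. The values deposited by the authors are log2 values, 1 per probe set; the scale was inferred from their range. Per the submitters' processing notes, Partek 6.6 was used. The sources used here do not give its background correction, normalisation, summarisation or genome build. Of 41345 probe sets, 23521 named 1 gene, 1814 several and 16010 were unnamed here. Symbols were updated through RefSeq (GRCm38.p6). Of several probe sets of a gene, the one with the highest mean was used, which gave 22180 genes. Dim genes were kept.

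MG was compared with PBS in limma 3.58.1 (R 4.3.3) with lmFit and eBayes, two-sided and without covariates, with Benjamini-Hochberg adjustment over all genes and a threshold of 0.05. Single values were also put to an exact permutation test. Lists are described by counts and medians. Precision is limited by the number of arrays. The p-values of limma rest on the spread between the 3 samples of a group, moderated toward the spread over all genes. The steps were tested on simulated data. Named genes were all members, a fixed set of related genes (of which Ccne2 and Trp53 were not analysed here), list members past the adjusted threshold, of which there were 0, and the 3 genes most like each of the 2 members of largest range. The members and lists were chosen with earlier results of these data known. Alternatives were a filter on dim genes, other uses of probe sets, quantile normalisation, median centring, other moderation, weighted arrays, a block for the replicate number, and arrays left out. Promoter windows came from RefSeq. Figures were drawn with matplotlib 3.10.9.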

Additional observations from a re-analysis of the deposited data

How the results depend on the processing

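No gene passed the adjusted threshold between MG and PBS in any of the 17 alternatives, while between 267 (dim genes left out) and 1163 (array weights) had an unadjusted p under 0.05, against 712 as reported. In the 100 values of members from settings that keep all arrays, and in the 10 without both arrays numbered 3, every sign was kept and none passed. With all arrays kept, only quantile normalisation, median centring and array weights could move a member's log2 difference. The other settings leave it unchanged by construction, so their kept signs carry no information. Of 60 values with 1 array left out, 9 turned sign. The log2 differences over the 6 fits ran from -0.18 to -0.09 for Ccnd1, -0.23 to -0.01 for Ccnd2, 0.15 to 0.20 for Ccnd3, -0.31 to 0.0889 for Cdkn1a, -0.02 (-0.023) to 0.13 for Cdkn1b, 0.07 to 0.60 for Cdkn1c, -0.08 (-0.0847) to 0.40 for Cdkn2a, -0.48 to 0.19 for Cdkn2b, -0.01 (-0.0081) to 0.25 for Cdkn2c and -0.01 (-0.0113) to 0.24 for Cdkn2d. The cause was not tested. All 10 members also stood above the median and the 99th percentile of the receptor genes.

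Same-numbered arrays deviated from their group means with correlations of 0.22, 0.04 and 0.45 for numbers 1, 2 and 3, so the numbers were not taken to pair the samples, and only the arrays numbered 3 correlated best with each other. With the replicate block, 0 genes passed and 1063 had an unadjusted p under 0.05, and the members' log2 differences were the same by construction (Ccnd3 0.18). In an F test of the replicate number itself (limma, Benjamini-Hochberg), 0 genes passed, 2975 had an unadjusted p under 0.05, and the adjusted p was 0.101 for Cdkn2b, 0.144 for Cdkn2a and 0.176 for Cdkn1c. Genes past the adjusted threshold of that F test numbered 171 with dim genes left out, 375 with median centring, 455 with a trended prior and 1 without moderation, against the 0 above.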
